A study of Mus musculus with 12 samples.

Results

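Peaks of lysine crotonylation (Kcr) that lie in the bodies of very long genes were examined in mouse dorsal hippocampus. A gene was called long if it was protein-coding, lay on chromosomes 1 to 19 and spanned 500 kb or more in RefSeq (GRCm38), and a peak was a member if it overlapped such a gene by at least 1 bp. Of the 20665 autosomal protein-coding genes, 216 were long. They held 772 of the 15844 autosomal peaks of one library (4.87%) and 23320 of the 329508 autosomal peaks of the other (7.08%), on 180 Mb, which is 7.50% of the autosomal sequence that the peaks span. Counted over all sequences, the lists held 16243 and 332168 peaks.

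Both libraries are ChIP-seq libraries (sequencing of the DNA that an antibody pulls down with its chromatin) from dorsal hippocampus of C57BL/6J mice, made with a pan-Kcr antibody, which binds crotonylated lysine whatever protein carries it. For the learning library the mice had been trained in spatial object recognition, and for the homecage library they had stayed in their cage. The labels give no age, sex or time after training for these mice and do not say whether animals were pooled, and the tissue is a mixture of neurons and glia. The single-nucleus and ChIP input libraries of the series were not analysed here. Each condition has 1 antibody library, so no value has a replicate check, and no test between conditions was made. All 95% intervals are exact (Poisson for counts, Clopper-Pearson for shares) and cover counting error only. The files give peak positions without read counts, and the depth behind either list is unknown.

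Crotonylation is an acylation of lysine side chains. On histones it is placed by acyltransferases that also place acetyl groups, it draws on crotonyl-CoA, and it is best known from the starts of active genes. Genes of this length are mostly intron. Many of them encode cell adhesion molecules, ion channels, receptors and synaptic scaffolds of neurons, their transcription takes a polymerase many hours, and several overlap common fragile sites, stretches prone to breakage when replication is slowed.

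The learning peaks at long genes were most crowded at the gene starts, and sequences from there are printed to show what lay under such peaks. Each is the 250 bases before the annotated start of a gene (RefSeq, GRCm38.p6), given 5′ to 3′ on the strand of the gene, with each CG dinucleotide in capitals. Entries of the promoter table gave a strand for 169 of the 216 long genes, and at 74 of these the start chosen lay within 100 bp of the end of the gene body in the gene table. Of these 74 starts at a gene boundary, 7 had a learning peak over these 250 bases, and 4 of the 7 had a homecage peak there too. The first set shows the 4 with the widest such learning peaks. Elmo1, which encodes an engulfment and cell motility protein, had a 995 bp learning peak over 237 of the 250 bases at chr13:20090257-20090506 (plus strand). B3galt1, a galactosyltransferase gene, had peaks of 837 bp (learning) and 895 bp (homecage) over the whole window at chr2:67565439-67565688 (plus strand). Mdga2, whose product is a membrane-anchored immunoglobulin protein of synapses, had peaks of 667 bp (learning) and 1176 bp (homecage) at chr12:67222550-67222799 (minus strand). Zfp804b, a zinc finger gene, had a 326 bp learning peak over 130 of the bases at chr5:7344379-7344628 (minus strand) and no homecage peak within 1 kb of the start. That peak ends before the gene body and is no member, whereas the other 3 learning peaks reach into their genes.
Elmo1: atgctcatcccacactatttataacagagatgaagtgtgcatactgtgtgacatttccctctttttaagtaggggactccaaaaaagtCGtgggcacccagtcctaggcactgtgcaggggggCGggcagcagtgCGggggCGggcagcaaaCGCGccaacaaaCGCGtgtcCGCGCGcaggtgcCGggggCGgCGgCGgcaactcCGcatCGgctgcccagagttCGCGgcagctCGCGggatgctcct
B3galt1: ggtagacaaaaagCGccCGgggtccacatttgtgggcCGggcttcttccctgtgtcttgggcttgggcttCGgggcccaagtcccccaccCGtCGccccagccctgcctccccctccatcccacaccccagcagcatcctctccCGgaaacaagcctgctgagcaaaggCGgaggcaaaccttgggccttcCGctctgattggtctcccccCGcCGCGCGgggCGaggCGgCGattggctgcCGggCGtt
Mdga2: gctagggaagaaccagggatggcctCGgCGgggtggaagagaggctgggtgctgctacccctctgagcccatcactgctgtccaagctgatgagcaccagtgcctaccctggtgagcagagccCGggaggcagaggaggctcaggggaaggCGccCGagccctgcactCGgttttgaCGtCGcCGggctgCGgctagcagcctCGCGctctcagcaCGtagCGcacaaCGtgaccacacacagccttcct
Zfp804b: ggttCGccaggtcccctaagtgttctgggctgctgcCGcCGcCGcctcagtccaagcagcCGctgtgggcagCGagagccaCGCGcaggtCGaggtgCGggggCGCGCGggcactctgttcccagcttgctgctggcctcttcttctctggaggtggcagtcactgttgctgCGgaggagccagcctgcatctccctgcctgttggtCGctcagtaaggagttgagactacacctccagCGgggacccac

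For comparison, the next pair come from the longest of the 74 genes that had a homecage peak over the window and no learning peak within 1 kb of this start. They are the adhesion gene Cntn5 (chr9:10904776-10905025, minus strand, a 370 bp homecage peak over 51 of the bases) and Nell1, which encodes a secreted protein (chr7:49975100-49975349, plus strand, a 746 bp homecage peak). The last pair come from the longest of the 74 genes with a peak of neither list within 1 kb of this start, Cntnap2 (chr6:45059811-45060060, plus strand), which encodes an axonal adhesion protein of the neurexin family, and Ctnna3 (chr10:63429848-63430097, plus strand), which encodes an alpha-catenin. Ctnna3 had a homecage peak within 1 kb of another of its annotated starts.
Cntn5: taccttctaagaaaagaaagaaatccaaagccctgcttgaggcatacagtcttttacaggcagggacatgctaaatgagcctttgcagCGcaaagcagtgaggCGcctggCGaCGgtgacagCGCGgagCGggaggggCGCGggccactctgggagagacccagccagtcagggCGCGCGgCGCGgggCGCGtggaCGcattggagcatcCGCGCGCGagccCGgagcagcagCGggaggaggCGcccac
Nell1: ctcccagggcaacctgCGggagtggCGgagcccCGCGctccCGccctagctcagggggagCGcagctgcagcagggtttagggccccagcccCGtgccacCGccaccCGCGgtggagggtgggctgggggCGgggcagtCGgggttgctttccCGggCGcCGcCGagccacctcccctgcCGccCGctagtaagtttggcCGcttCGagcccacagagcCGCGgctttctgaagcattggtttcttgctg
Cntnap2: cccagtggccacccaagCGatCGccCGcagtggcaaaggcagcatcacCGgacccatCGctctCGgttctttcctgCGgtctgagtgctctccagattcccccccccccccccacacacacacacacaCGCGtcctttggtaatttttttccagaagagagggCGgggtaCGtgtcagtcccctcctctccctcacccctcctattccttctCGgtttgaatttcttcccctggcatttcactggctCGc
Ctnna3: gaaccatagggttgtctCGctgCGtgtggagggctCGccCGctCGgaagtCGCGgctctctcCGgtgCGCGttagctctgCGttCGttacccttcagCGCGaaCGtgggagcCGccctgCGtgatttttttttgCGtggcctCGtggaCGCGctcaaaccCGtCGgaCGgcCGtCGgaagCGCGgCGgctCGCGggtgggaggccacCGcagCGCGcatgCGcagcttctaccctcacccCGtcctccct

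The number of CG dinucleotides in the 8 windows ran from 13 at Cntnap2 to 36 at Ctnna3, and both of these starts lacked a peak of either list within 1 kb. The 4 printed starts with a learning peak had between 15 and 21, but all 7 boundary starts with a learning peak over the window ranged from 7 to 43. Over the starts of all 169 long genes, taking for each gene its outermost entry, the 250 bases held a median of 12 CG (25th to 75th percentile 6 to 21), compared with a median of 10 over 16457 autosomal protein-coding genes. CG was present in 98.2% of the long-gene windows and in 93.0% of all windows. Among long genes, the 32 with a learning peak within 1 kb had a median of 20.5 CG and a GC content of 68.0%. The 77 with a homecage peak only had medians of 11 CG and 59.6% GC, and the 60 with neither had 9 CG and 54.2% GC. The same order held over all genes, where the median GC content was 63.6% in 2729 genes with a learning peak, 57.2% in 6371 with a homecage peak only and 51.6% in 7357 with neither.

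Learning peaks were sparse in the long genes as a whole. The learning list had 4.29 peaks per Mb there (95% interval 3.99 to 4.60), compared with 9.30 (9.09 to 9.52) in the bodies of shorter protein-coding genes and 5.62 (5.50 to 5.75) outside protein-coding genes. Long genes thus had 0.461 times the density of shorter genes. In the homecage list the difference was small, with 129 peaks per Mb in long genes (128 to 131), 146 in shorter genes (145 to 146) and 135 outside genes (135 to 136), a ratio of long to shorter genes of 0.889. With the homecage list cut to its widest peaks, as many as the learning list holds, this ratio was 0.632. For each learning peak there were 30.2 homecage peaks in the long genes and 15.7 in the shorter ones, against 20.8 over all autosomes. The learning density was lower in long than in shorter genes on 19 of 19 chromosomes, and the homecage density on 18 of 19, with chromosome 10 as the exception.

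**Figure D1:**
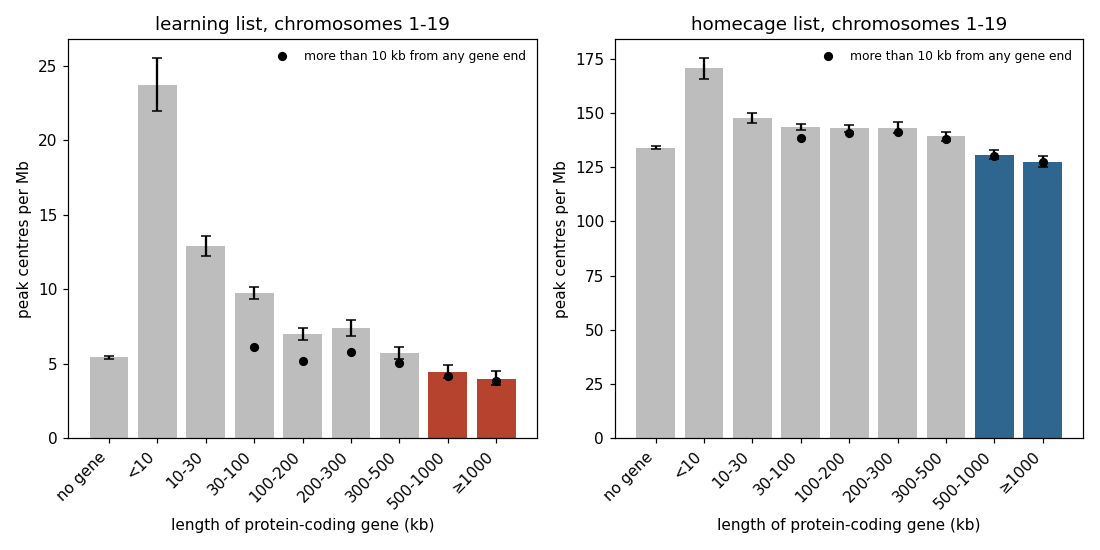
Peak centres per Mb (y axis) by length of the protein-coding gene in kb (x axis), with sequence outside genes at the left, for the learning list (left) and the homecage list (right). Bars show all sequence of a class (genes of 500 kb or more coloured) with 95% Poisson intervals, and black points show sequence more than 10 kb from any gene end. The learning bars fall from 23.7 in genes under 10 kb to 4.0 in genes of 1000 kb or more, while the homecage bars fall from 171 to 127.

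The learning density was lower in longer genes, apart from a value of 7.38 in genes of 200 to 300 kb (6.85 to 7.93) after 6.99 in genes of 100 to 200 kb (6.61 to 7.38). It went from 23.7 peak centres per Mb in the 7343 genes under 10 kb (95% interval 21.9 to 25.5) to 5.71 in the 317 genes of 300 to 500 kb (5.30 to 6.16), 4.47 in the 161 genes of 500 to 1000 kb (4.08 to 4.89) and 4.0 in the 55 genes of 1000 kb or more (3.56 to 4.49). The intervals of the last 2 classes overlapped. The homecage density was 171 in the shortest class (166 to 175), stayed between 139 and 147 in genes of 10 to 500 kb, and was 131 (129 to 133) and 127 (125 to 130) in the 2 long classes. The order was also examined away from the gene ends. In sequence more than 10 kb from any gene end, the learning density was 6.14 in genes of 30 to 100 kb (5.76 to 6.53), 5.20 in genes of 100 to 200 kb (4.85 to 5.58), 5.83 in genes of 200 to 300 kb (5.33 to 6.35), 5.06 in genes of 300 to 500 kb (4.66 to 5.49), 4.19 in genes of 500 to 1000 kb (3.80 to 4.60) and 3.88 in genes of 1000 kb or more (3.43 to 4.36). Once the 10 kb inside each gene end were left out, long genes had 0.712 times the learning density and 0.919 times the homecage density of shorter genes.

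The gene-free sequence beside the long genes had densities much like theirs. Within 500 kb of a long gene and outside any protein-coding gene, the learning list had 4.35 peaks per Mb (95% interval 4.02 to 4.71) and the homecage list 129 (127 to 131), and both intervals overlapped those inside the genes. In narrow bands on both sides of the length limit the learning values differed more than the homecage values. The 53 genes of 450 to 500 kb had 7.56 learning peaks per Mb (6.52 to 8.71) and the 31 genes of 500 to 550 kb had 4.80 (3.79 to 5.99), while the homecage values were 142 (137 to 147) and 138 (132 to 144). The 7.56 also lay above the 5.71 (5.30 to 6.16) of all genes of 300 to 500 kb, a class counted by peak centre. A step at 500 kb was not tested. Just inside the limit lay Edil3 (502 kb, 3 learning and 71 homecage peaks) and Dock1 (503 kb, 0 and 60). Just outside it lay Dnm3 (496 kb, 6 and 71) and Lrrc7 (495 kb, 4 and 73).

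Member peaks had median widths a little below those in shorter genes, and wide peaks were fewer among them. Learning members had a median width of 298 bp, compared with 315 bp for peaks in shorter genes. Homecage members had a median width of 345 bp, compared with 357 bp. For peaks of at least 500 bp the density ratio of long to shorter genes was 0.301 (learning) and 0.791 (homecage). With peaks of all widths it was 0.461 and 0.889. Learning peaks covered 0.138% of the long-gene sequence and homecage peaks 5.04%. Shorter genes lay inside or across the long ones in 103 cases, but only 10 learning members (1.30%) and 228 homecage members (0.978%) overlapped one, on 0.938% of the long-gene length, and 760 learning members lay neither in a shorter gene nor within 1 kb of its ends. The gene table gives no exons, so exonic and intronic peaks were not separated.

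Learning peaks in long genes overlapped a homecage peak less often than learning peaks elsewhere taken as a whole. Of the 772, 229 overlapped one (29.7%, 95% interval 26.5 to 33.0%), compared with 6558 of the other 15072 autosomal learning peaks (43.5%, 42.7 to 44.3%). The intervals did not overlap, but neighbouring peaks are not independent and the true errors are larger. The homecage list also covered less of the long genes than of the shorter ones (5.04% against 5.91%), and its part in the lower sharing was not tested. The share was lower in each longer class of genes, so the low value is not particular to genes of 500 kb or more. By peak centre it was 65.1% in genes under 10 kb (61.3 to 68.6%), 45.7% in genes of 100 to 200 kb (42.9 to 48.4%) and 32.1% in genes of 300 to 500 kb (28.7 to 35.7%). In genes of 500 to 1000 kb it was 31.4% (27.2 to 35.8%) and in genes of 1000 kb or more 26.6% (21.6 to 32.1%), with intervals that overlapped that of the 300 to 500 kb class. Narrow and wide peaks both showed the difference. Among peaks narrower than the long-gene median, 22.5% were shared in long genes (18.5 to 27.0%) and 35.9% elsewhere (34.8 to 37.0%). Among the wider ones the shares were 36.8% (32.0 to 41.8%) and 50.5% (49.4 to 51.6%). Sharing also varied with position. Within 10 kb of an end of a long gene 36 of 57 learning peaks were shared (63.2%, 49.3 to 75.5%), and further inside 193 of 715 were (27.0%, 23.8 to 30.4%).

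Position along the gene was read from the 169 long genes with a strand. The start is here the outer boundary of the gene body, and further annotated starts can lie inside the gene. The first 1 kb of these genes held 25 learning peaks, each in a different gene, which is 148 per Mb (95% interval 95.7 to 218). The density was 7.40 from 1 to 5 kb (2.40 to 17.3), 7.10 from 5 to 10 kb (2.61 to 15.5) and 3.99 from 10 to 50 kb (2.63 to 5.81). At the other end there was 1 learning peak in the last 1 kb, or 5.92 per Mb (0.15 to 33.0), and 4 from 1 to 5 kb before it. Of the 25 peaks at the starts, 19 overlapped a homecage peak (76.0%, 54.9 to 90.6%), and the share was 29.6% from 10 to 50 kb (13.8 to 50.2%).

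**Figure D2:**
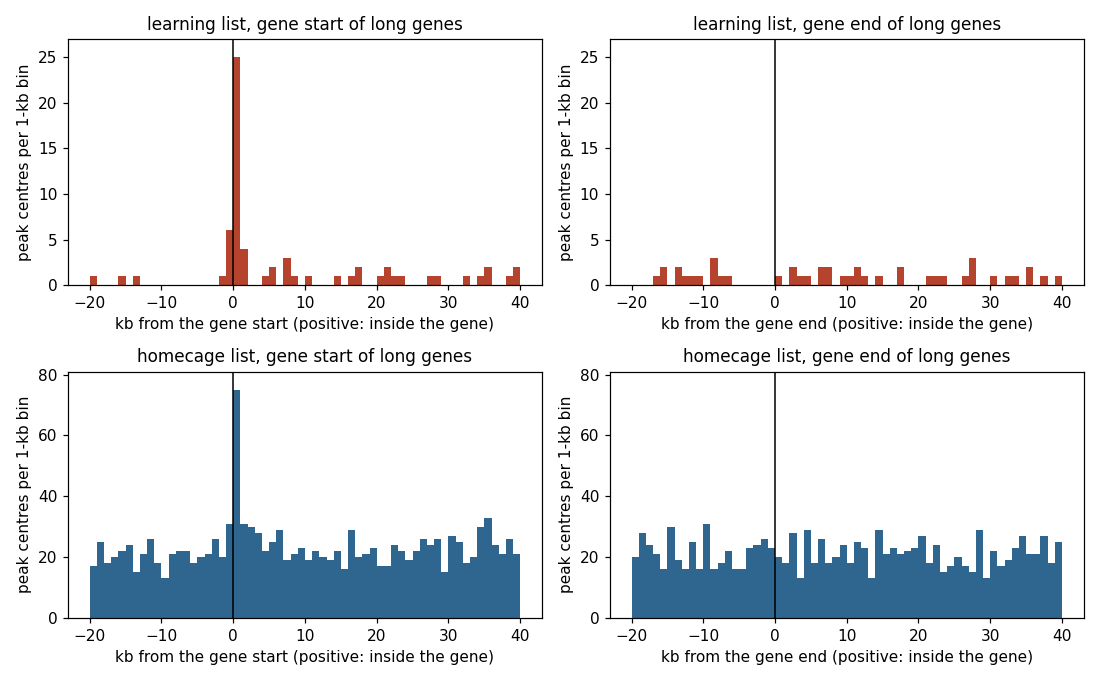
Number of peak centres in 1-kb bins (y axis) by distance in kb from the start (left) and the end (right) of the long genes with known strand, with positive distances inside the gene (x axis), for the learning list (top) and the homecage list (bottom). The highest bar in each list is the first 1 kb inside the start, with 25 learning and 75 homecage peak centres, and no such bar stands at the gene end.

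The homecage list had the same kind of rise, on a high floor. Its first 1 kb held 82 member peaks in 80 genes, or 485 per Mb (95% interval 386 to 602), followed by 164 from 1 to 5 kb (135 to 198), 138 from 5 to 10 kb (115 to 166) and 129 from 10 to 50 kb (121 to 138). The last 1 kb had 148 (95.7 to 218), and its interval overlapped that of the 122 per Mb found 10 to 50 kb from the end (114 to 131). These counts place a peak that straddles the gene boundary in the first 1 kb, whereas the plot of peak centres leaves it outside when its centre is outside. Over all 216 genes, counting both ends, the learning density was 3.27 times higher within 10 kb of an end than further inside, and the homecage density 1.19 times. The learning value depended on the zone, with 5.13 for 5 kb and 1.42 for 50 kb, and was 8.64 for peaks of at least 500 bp. With the homecage list reduced to its widest peaks, as many as the learning list holds, the homecage value was 1.88.

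The 1-kb surroundings of annotated starts were also compared with all genes. A learning peak lay within 1 kb of a start of 39 of 169 long genes (23.1%, 95% interval 17.0 to 30.2%), and over all 16457 autosomal protein-coding genes with an entry the share was 17.5%. A homecage peak lay there in 120 long genes (71.0%, 63.5 to 77.7%), against 54.6% of all genes. Long genes had more annotated starts each (a mean of 1.60, compared with 1.22 in shorter genes). With 1 start per gene, the outermost, the shares were 18.9% (13.3 to 25.7%) against 16.6% in shorter genes (16.0 to 17.1%) for the learning list, and 62.1% (54.4 to 69.5%) against 52.5% (51.8 to 53.3%) for the homecage list. The intervals of long and shorter genes overlapped in the learning list and did not overlap in the homecage list. Both lists had a peak at a start of 36 long genes, the learning list alone at 3, the homecage list alone at 84 and neither at 46. These starts are those of the promoter entries, whereas the first 1 kb described above runs from the boundary of the gene body. A gene with a peak at that boundary can therefore be counted here as having none.

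Each of the 169 genes was also divided into 10 equal parts. The first part had 5.95 learning peak centres per Mb (95% interval 4.75 to 7.37), and the other parts lay between 3.47 (2.57 to 4.59) in the eighth and 5.10 (3.99 to 6.43) in the last, with intervals that overlapped one another. The interval of the first part overlapped all of these except that of the eighth. In the homecage list the parts lay between 126 (120 to 132) in the second and 136 (130 to 142) in the first, and all 10 intervals overlapped.

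**Figure D3:**
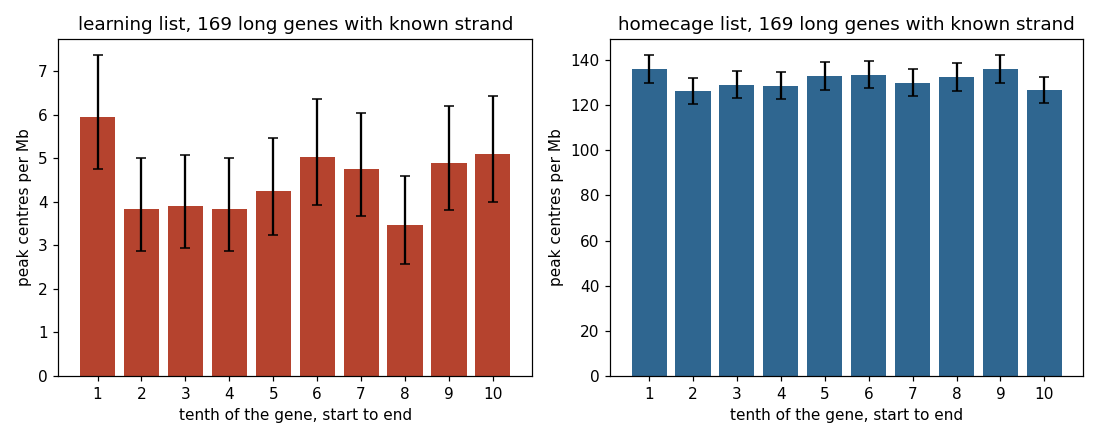
Peak centres per Mb (y axis) in 10 equal parts of the 169 long genes with known strand, from start to end (x axis), for the learning list (left) and the homecage list (right). Error bars are 95% Poisson intervals. The first part is the highest in the learning list, at 5.95, and the homecage parts differ by less than their intervals.

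Single genes held few learning peaks. A long gene had a median of 3 (range 0 to 15), 199 of the 216 had at least 1 (92.1%, 95% interval 87.7 to 95.3%), and the share over all autosomal protein-coding genes, most of which are far shorter, was 26.2%. A homecage peak was present in 216 of 216 long genes, against 80.8% of all genes, and a long gene had a median of 98 (range 50 to 281). The learning density was below the 9.30 per Mb of shorter genes in 198 of the 216 genes, and the whole 95% interval lay below it in 69 and above it in none. The homecage density was below the 146 per Mb of shorter genes in 179 genes, and the whole interval lay below it in 64 and above it in 3. The homecage count followed gene length closely (Spearman's rho = 0.90 across the 216 genes), and the learning count loosely (rho = 0.38). Learning counts were much lower (median 3 against 98), and the part of counting error in the lower rho was not tested. All genes share the same libraries, and these values are descriptions. The variance of the learning count over genes was 7.76, with a mean of 3.62. Gene length, from 502 to 2271 kb, adds to this variance, and clustering of peaks in some genes was not tested.

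**Figure D4:**
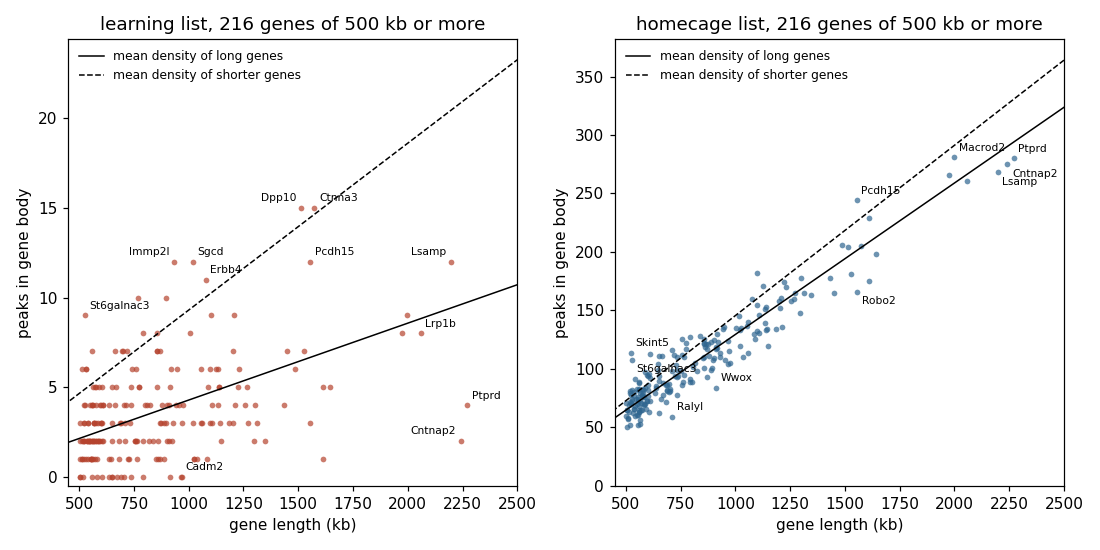
Peaks in the gene body (y axis) against gene length in kb (x axis) for 216 long genes (1 point each), in the learning list (left) and the homecage list (right). The solid line has the mean density of long genes and the dashed line that of shorter genes. In the learning list 198 points lie under the dashed line, with up to 15 peaks at Dpp10 and Ctnna3, and in the homecage list the points follow the solid line.

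The 6 long genes with the highest learning density encode proteins of unlike function. St6galnac3, a sialyltransferase gene (chromosome 3, 153198274 to 153725133), had 9 learning peaks, or 17.1 per Mb (95% interval 7.81 to 32.4). These lay from 23.6 to 449 kb behind the gene start, and 1 of the 9 overlapped a homecage peak. Adgrb3, an adhesion G protein-coupled receptor gene of synapses (chromosome 1, 25067476 to 25834772), had 10, or 13.0 per Mb (6.25 to 24.0). Immp2l, which encodes a subunit of the mitochondrial inner membrane peptidase (chromosome 12, 41024061 to 41955588), had 12, or 12.9 per Mb (6.66 to 22.5). Its first peak, of 369 bp, was centred 0.343 kb inside the gene start, and 7 of its 12 peaks overlapped a homecage peak. Pkhd1, a gene of primary cilia best known from the kidney (chromosome 1, 20057779 to 20618082), had 7, or 12.5 per Mb (5.02 to 25.7). Sgcd, which encodes delta-sarcoglycan of the dystrophin complex (chromosome 11, 46971077 to 47989451), had 12, or 11.8 per Mb (6.09 to 20.6). A group of 4 of these lay close together, from 132 to 141 kb behind the start, and 3 of the 4 overlapped a homecage peak. Syt1, which encodes the calcium sensor of synaptic vesicle release (chromosome 10, 108497650 to 109010980), had 6, or 11.7 per Mb (4.29 to 25.4), none of them shared. All 6 intervals held the 9.30 per Mb of shorter genes and overlapped one another, so the order of these genes is not resolved.

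The most learning peaks, 15 each, lay in Dpp10, which encodes an auxiliary subunit of Kv4 potassium channels (chromosome 1, 123332138 to 124845815), and Ctnna3 (chromosome 10, 63430098 to 65003667). In Dpp10, 14 of the 15 lay from 600 to 1330 kb behind the outer start of the 1514 kb gene, and the remaining one at 17.7 kb. A learning peak nevertheless lay within 1 kb of an annotated start of Dpp10. In Ctnna3 none lay in the first 234 kb. Lsamp, Pcdh15, Immp2l and Sgcd had 12 each. The longest genes were not the richest. Ptprd, a receptor tyrosine phosphatase gene of synapses (2271 kb), had 4 learning peaks, and Cntnap2 (2241 kb) had 2, or 0.892 per Mb (95% interval 0.108 to 3.22), with a stretch of 1315 kb free of learning peaks. Lsamp, which encodes an adhesion protein of limbic neurons (2197 kb), had 12, or 5.46 per Mb (2.82 to 9.54), Lrp1b, a lipoprotein receptor gene (2058 kb), had 8, and Macrod2, which encodes an ADP-ribose hydrolase (1998 kb), had 9. The intervals of Cntnap2 and Lsamp overlapped. The same 5 genes had 280, 275, 268, 261 and 281 homecage peaks, between 122 and 141 per Mb.

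**Figure D5:**
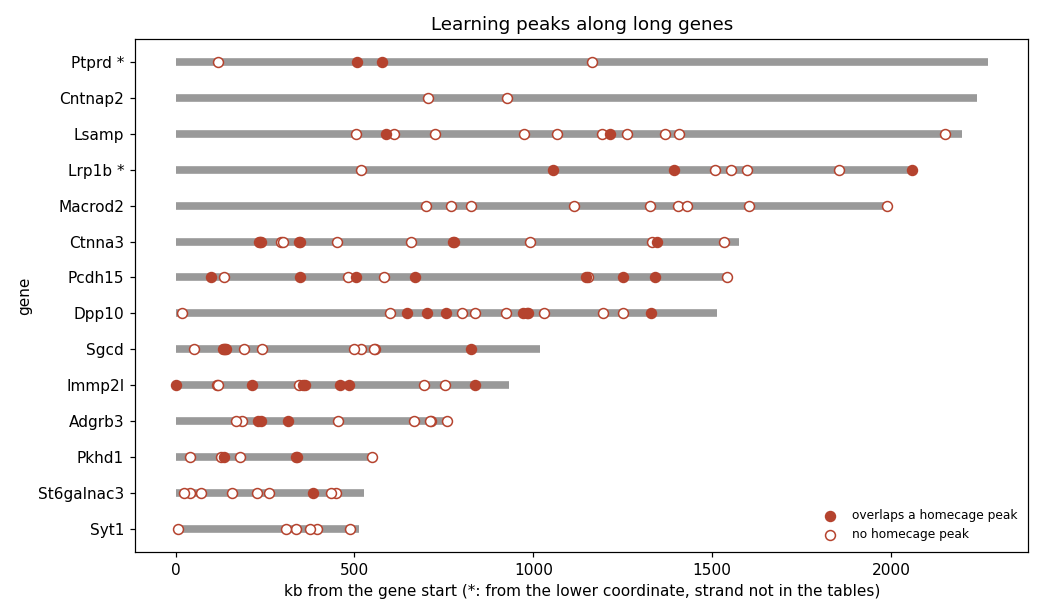
Learning peaks (circles) along 14 long genes (grey bars, 1 per row), by distance in kb from the gene start (x axis), or, for Ptprd and Lrp1b (marked with an asterisk), whose strand is not in the tables, from the end with the lower coordinate. The genes are the longest, those with the most learning peaks and those with the highest learning density, and filled circles overlap a homecage peak. Of the 15 peaks of Dpp10, 7 are filled, Cntnap2 has 2 open circles, and Immp2l has a filled circle at its start.

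In 17 long genes no learning peak was found. The longest of them were Epha6, an ephrin receptor gene (969 kb), Cadm2, an adhesion gene (966 kb), Wwox, an oxidoreductase gene at a fragile site (913 kb), Inpp4b, a lipid phosphatase gene (792 kb), and Rora, which encodes a nuclear receptor (735 kb). A count of 0 allows up to 3 peaks, which is 3.09 per Mb at Epha6 and 4.08 at Rora. These 5 genes had between 84 and 115 homecage peaks.

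The homecage density ranged from 83.0 per Mb in Ralyl, which encodes an RNA-binding protein (59 peaks), to 219 in Skint5 (114 peaks). Skint5 belongs to a family of similar neighbouring genes whose reads can be shared, so its value is uncertain. It was followed by St6galnac3 with 205 (108 peaks), Cacna1c, which encodes the pore of an L-type calcium channel, with 185 (113 peaks), Nav2, a neuron navigator gene, with 170.5 (111 peaks), and Nfia, a transcription factor gene, with 168 (91 peaks). St6galnac3 was thus among the densest in both lists, and the other 4 had between 2 and 5 learning peaks. At the low end, Ralyl was followed by Wwox with 92.0 (84 peaks), Dock2, a gene of blood-derived cells, with 93.3 (52 peaks), Adarb2, which encodes a relative of the RNA-editing enzymes, with 93.6 (53 peaks), and Tmem132d with 95.4 (62 peaks). Dock2 also held the longest stretch without a homecage peak, 137 kb, against a median over genes of 36.5 kb. For learning peaks the median of the longest free stretch was 424 kb.

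Neighbouring learning peaks of a gene were a median of 102 kb apart, and 66 of the 583 gaps (11.3%) were under 10 kb. Neighbouring homecage peaks were a median of 5.06 kb apart. The widest learning members measured 1299 bp in Adgrb3 (chromosome 1, 25520904 to 25522202, over a 1132 bp homecage peak), 1286 bp in Pkhd1 (chromosome 1, 20490054 to 20491339, with no homecage peak) and 1112 bp in Sgcd (chromosome 11, 47854262 to 47855373, over a 351 bp homecage peak). All 3 lay more than 127 kb from the nearer gene end. The widest homecage members measured 2679 bp in Zbtb20, a transcription factor gene (chromosome 16, 43504768 to 43507446, no learning peak), 2639 bp in Nckap5 (chromosome 1, 126664491 to 126667129, over a 230 bp learning peak) and 2527 bp in Dpp10 (chromosome 1, 123514720 to 123517246, over a 531 bp learning peak).

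By chromosome, the learning density in long genes was highest on chromosome 1, with 7.93 per Mb in 19 genes, and chromosome 10, with 7.65 in 12 genes, and lowest on chromosome 19, with 2.78 in 6 genes. Shorter genes on chromosomes 1 and 10 had 10.6 and 9.34 per Mb. Without these 2 chromosomes the learning density in long genes was 3.71 per Mb. The homecage density in long genes ranged from 113 on chromosome 15 to 143 on chromosome 10.

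Differences between functional groups of long genes were not resolved, since every list interval held the value for all long genes. Of the 216 genes, 127 were in at least 1 of 11 lists of gene function, and 89 were in none. The 36 cell adhesion and synapse organisation genes had 159 learning peaks, or 4.01 per Mb (95% interval 3.41 to 4.68), and 128 homecage peaks per Mb (125 to 132), with a learning peak in 33 of the 36, near the 92.1% of all long genes. The 14 genes of axon guidance and neurotrophic signalling had 4.10 learning peaks per Mb (3.07 to 5.36), led by Erbb4, the neuregulin receptor gene, with 11 peaks, while Robo2, a Slit receptor gene, had 3 and Dab1, which acts in reelin signalling, had 6. The 6 receptor tyrosine phosphatase genes had 4.43 (2.92 to 6.44), with 8 peaks in Ptprn2 and 5 in Ptprt. The 13 synaptic scaffold and vesicle release genes had 4.81 (3.59 to 6.31), with 8 peaks in Dlg2 and 6 in Magi2, both scaffold genes. The 15 ion channel and auxiliary genes had 4.69 (3.54 to 6.08), with 15 peaks in Dpp10 and 9 in Nkain2, which encodes a sodium pump interacting protein. The 17 fragile site genes had 4.54 (3.70 to 5.52), with a learning peak in 16 of the 17, also near the 92.1% of all long genes.

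Other lists had fewer peaks and wider intervals. The 7 glutamate and GABA receptor genes had 20 learning peaks, or 3.38 per Mb (95% interval 2.07 to 5.22), of which Grm7, a metabotropic receptor gene, held 2. The 13 transcription factor and cofactor genes had 3.77 (2.62 to 5.24), with 4 peaks each in Auts2 and Sox5. The 4 RNA-binding genes had the highest value, 6.04 (3.87 to 8.99), with 8 peaks in the splicing regulator gene Celf2, 7 in Rbfox1 and 3 in Rbms3. The 7 genes of phosphodiesterases, kinases and lipid signalling had the lowest, 2.65 (1.49 to 4.38), with 4 peaks in Pde4d and 3 in Prkg1. The 4 long genes known from glia had 3.58 (1.85 to 6.25), with 4 peaks each in Gpc5 and Npas3. The intervals of all 11 lists held the 4.29 per Mb of all long genes, and the homecage values of the lists lay between 120 and 134 per Mb. The median over genes was 3.73 learning peaks per Mb for all 216 long genes, and between 2.17 (glutamate and GABA receptors) and 6.96 (RNA-binding) in the lists.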

How the data were processed

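The peak lists are the only measurements. Each deposited file has 4 columns (chromosome, start, end, peak name) with no strength or read count. In the deposited peak names, the calls are given as broad ones with a p-value cut of 0.01. The submitters' processing notes list Trimmomatic, BWA, MACS2 and mm10 without roles, and the use of an input is not stated. Gene spans, promoter entries and sequences came from RefSeq tables of GRCm38.p6, whose promoter table gives the strand. All 488 pairs of overlapping promoter entries on opposite strands were reverse complements.

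Peaks per Mb were counted over merged gene bodies, by any overlap of 1 bp or, for length classes and the 10 parts, by peak centre. Genes covered by a longer class were counted there. Shared peaks overlap by at least 1 bp. Of the long genes, 42 overlap another protein-coding gene. Where long genes overlap one another, a peak was counted once in each, which added 10 learning counts to the per-gene values only. The rule for named genes took long genes with extreme length, learning count, learning or homecage density, the longest without a learning peak, those with the widest peaks, and in each list the 2 longest and the one with most learning peaks. Genes beside the length limit, those of the printed promoters and the X-linked ones were named outside this rule. One of the genes that the rule takes is not reported here. The promoters printed were chosen after peak positions were known. The members, lists and tests were chosen with earlier results of these data known. No test between conditions was possible with 1 library each. The counting functions were tested on simulated lists. The tools were matplotlib 3.10.9, scipy 1.17.1, numpy 2.4.6 and pandas 2.3.3 under Python 3.11.15.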

Additional observations from a re-analysis of the deposited data

Results flagged for a closer look

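Long genes of chromosome X were not among the members and enter only one alternative, described under the dependence on processing. The 11 X-linked protein-coding genes of 500 kb or more held 25 homecage peaks, in 10 of the 11 genes. This is 2.39 per Mb (95% interval 1.55 to 3.52), compared with 3.47 in shorter X-linked genes. They held 0 learning peaks (95% interval 0 to 0.352 per Mb). Shorter X-linked genes held only 5, or 0.142 per Mb, inside that interval, so the 0 does not set the long genes apart. Dmd, the dystrophin gene of 2390 kb, had 7 of the homecage peaks and Il1rapl1, a synaptic receptor gene, had 4.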

How the results depend on the processing

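No paired analysis was possible because there was a single antibody library for learning and for homecage, which also means that leaving out a replicate could not be tried. Among 78 values from alternatives, 47 lay inside the main value's counting interval (for gene counts, within 1.5 times) and 31 moved. No density ratio crossed 1.

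With a limit of 400 kb, which takes 338 genes, the densities in long genes were 4.69 (learning) and 132 (homecage), the homecage ratio to shorter genes 0.904 and the genes with a learning peak 306. With 1000 kb, which takes 55 genes, the homecage density was 127 and 55 genes had a learning peak. Peaks of at least 500 bp gave densities of 0.505 and 30.3, ratios of 0.301 and 0.791, a shared share of 37.4%, 61 genes with a learning peak, and end-to-interior ratios of 8.64 and 1.44. Merging peaks less than 1 kb apart gave a homecage density of 117 and a homecage ratio of 0.910. Including X gave 122 and 0.877. An overlap of 50% of both peaks left 9.84% shared. End zones of 5 kb gave end-to-interior ratios of 5.13 and 1.44, and zones of 50 kb gave 1.42 and 1.01. Leaving out the 10 kb inside gene ends gave ratios to shorter genes of 0.712 and 0.919.

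Alternatives chosen after seeing the data were a homecage list reduced to its widest peaks at the learning number and removal of chromosomes 1 and 10. The first gave a homecage density of 5.19, a ratio of 0.632, an end-to-interior ratio of 1.88 and 7.38% shared learning peaks. The second gave a learning density of 3.71 and a ratio of 0.404. The causes of these shifts were not tested. Read depth, which is unknown, limits how far the 2 lists can be compared.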
